A study of Homo sapiens with 5 samples.

Results

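The miR-200 family was followed as 9 rows of the deposited count tables: the 3p and 5p arms of miR-200a, miR-200b, miR-200c and miR-141, and miR-429, which is named with 1 arm. The rows were chosen by name, from hsa-miR-200a-3p, hsa-miR-200a-5p, hsa-miR-200b-3p, hsa-miR-200b-5p, hsa-miR-200c-3p, hsa-miR-200c-5p, hsa-miR-141-3p and hsa-miR-141-5p to hsa-miR-429, and all 9 of them passed the low-count filter that 697 of 2565 human miRNA rows passed. All libraries come from a single cell line, MCF10A, which is made of human breast epithelial cells that are immortalized but do not form tumours. The 2 detached libraries came from cells held in suspension for 24 h by a 2% poly-HEMA coating, to which cells cannot adhere, and the 3 attached libraries from cells on uncoated plastic. The time label of the attached libraries is 0 h, whereas the series' design text gives the same culture time for both groups. Both groups grew in the same serum-containing medium with epidermal growth factor, insulin, hydrocortisone, cholera toxin, penicillin and streptomycin, per the labels. The comparison asks how small RNAs differ between suspended and adherent cells, and nothing in the labels says that replicates were separate cultures, so the p-values below rest on a spread between libraries that may be technical.

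The miR-200 family is the best known group of epithelial miRNAs. Its 3p strands repress ZEB1 and ZEB2, transcription factors that silence E-cadherin, and ZEB proteins in turn repress both miR-200 loci, so that high miR-200 goes with an epithelial state and low miR-200 with a mesenchymal one. In each hairpin the 3p strand is the guide, the strand mostly kept in Argonaute, and the 5p strand is the passenger.

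The mature 3p sequences are shown because the family is divided by a base in the seed, bases 2 to 8, which pairs with target mRNAs. Sequences are from RefSeq (GRCh38.p14, 8 of 9 members matched), 5′ to 3′, with the seed in capitals.
miR-200c-3p: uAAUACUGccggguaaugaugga
miR-200b-3p: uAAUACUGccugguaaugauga
miR-429: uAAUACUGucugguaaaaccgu
miR-141-3p: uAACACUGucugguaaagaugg
miR-200a-3p: uAACACUGucugguaacgaugu
The first 3 share the seed AAUACUG, which pairs with CAGUAUU in a target, and the last 2 share AACACUG, which pairs with CAGUGUU. No other human mature miRNA in the RefSeq table carries either seed. Counting positions from 1 at the 5′ end, miR-200c-3p differs from miR-200b-3p by G11U and G22A over 22 bases, and miR-141-3p differs from miR-200a-3p by A17C and G22U. Across the seed groups, miR-200c-3p differs from its neighbour miR-141-3p by U4C in the seed and by C9U, G11U and U17A outside it. How the authors treated reads that match several names is not given in the sources used here, so the split of counts between these near-identical names is uncertain.

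The passenger strands are less alike: miR-200c-5p and miR-200b-5p differ at 8 of 22 positions, and miR-200b-5p and miR-200a-5p at 5.
miR-200c-5p: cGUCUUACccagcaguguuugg
miR-200b-5p: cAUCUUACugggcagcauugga
miR-200a-5p: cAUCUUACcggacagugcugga
Again the capitals mark bases 2 to 8. The hairpins of miR-200c and miR-200b show how the strands lie, with the 5p and 3p mature strands in capitals.
MIR200C hairpin: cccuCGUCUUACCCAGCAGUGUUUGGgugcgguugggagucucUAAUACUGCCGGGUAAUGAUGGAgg
MIR200B hairpin: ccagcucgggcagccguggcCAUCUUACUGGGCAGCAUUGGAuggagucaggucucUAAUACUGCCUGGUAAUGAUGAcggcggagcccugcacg
In both hairpins the passenger comes first and the guide after the loop.

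The family comes from 2 loci, positions on hg38 from GENCODE 29. On chromosome 12, MIR200C (6963699 to 6963766) and MIR141 (6964097 to 6964191) start 398 bp apart on the plus strand, both in an intron of the long noncoding RNA gene MIR200CHG. On chromosome 1, MIR200B (1167104 to 1167198), MIR200A (1167863 to 1167952) and MIR429 (1169005 to 1169087) span 1984 bp of the plus strand. There GENCODE 29 has no overlapping gene of a type other than miRNA, while RefSeq places all 3 hairpins inside the long noncoding RNA gene MIR200BHG (1162877 to 1170338). Each locus thus holds a member of each seed group. The RefSeq windows around the starts of both host genes are shown because ZEB proteins bind the E-box CACCTG, or CAGGTG on the other strand, which is in capitals.
MIR200BHG, chr1:1162627-1162926, plus strand: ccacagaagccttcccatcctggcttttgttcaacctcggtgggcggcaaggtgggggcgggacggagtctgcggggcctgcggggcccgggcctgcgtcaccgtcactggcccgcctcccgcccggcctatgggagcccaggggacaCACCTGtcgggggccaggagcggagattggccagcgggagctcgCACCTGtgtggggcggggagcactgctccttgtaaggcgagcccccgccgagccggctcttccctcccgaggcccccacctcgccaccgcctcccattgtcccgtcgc
MIR200CHG, chr12:6962995-6963294, plus strand: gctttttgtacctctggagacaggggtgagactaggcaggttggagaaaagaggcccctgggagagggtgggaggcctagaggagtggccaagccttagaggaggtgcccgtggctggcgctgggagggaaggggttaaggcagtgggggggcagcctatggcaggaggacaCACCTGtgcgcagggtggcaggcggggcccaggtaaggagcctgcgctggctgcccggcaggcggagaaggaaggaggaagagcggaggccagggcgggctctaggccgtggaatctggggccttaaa
These windows run from 250 bases before to 50 bases after the start, in GRCh38.p14. The E-box, searched on both strands, begins at -102 and -58 from the MIR200BHG start and at -78 from the MIR200CHG start. Of 35116 such windows in the table, 20.6% hold at least 1 match and 3.49% at least 2. A match is a description of the letters, and no factor's binding was measured here.

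Human miRNA rows totalled 8805009 to 15793173 counts per library, 97.1% to 98.7% of all named small RNA counts. Levels are given as CPM, counts per 1000000 human miRNA counts after TMM scaling, whose factors ran from 0.748 to 1.25, and 3 counts, the floor of detection, correspond to 0.191 to 0.455 CPM. Attached replicate 2, the shallowest library, stood apart: over 697 rows its levels had Spearman correlations of 0.812 to 0.857 with the remaining libraries, against 0.927 to 0.961 among the other 4. Fold changes of the family, and most shares and ratios that it moves, are given with and without it. Blood cell markers (7 of 7 named, miR-142, miR-223, miR-451a and others) summed to 17.7 to 23.1 CPM in detached and 7.74 to 16.8 CPM in attached libraries. The 5 fibroblast and mesenchymal markers summed to 14.7 to 58.1 CPM in detached and 3.91 to 15.9 CPM in attached libraries, with miR-214-3p at 0.170 CPM or less in every library. The part of such cells in the results was not tested, and fewer cells expressing a miRNA cannot be told apart from less of it per cell in bulk libraries.

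The miR-200 family was abundant in both conditions. The 9 rows held 3.28% and 3.59% of human miRNA counts in detached replicates 1 and 2, and 3.25%, 2.46% and 3.18% in attached replicates 1, 2 and 3. On this scale both detached libraries lay above all attached ones, narrowly over attached replicate 1. With TMM scaling the order did not hold: the family averaged 30871 ± 2924 CPM in detached (SD, n = 2) and 31701 ± 3416 CPM in attached cells (SD, n = 3), and the groups overlapped. Under TMM the sign of this difference also turned on single libraries: the difference, -829 CPM over all 5, was 1238 CPM without detached replicate 2 and 507 CPM without attached replicate 1. TMM and the plain total differ for the whole table too, since the median log2 fold change of all tested rows was -0.04 with TMM and 0.20 with plain totals. The composition of the family varied more than its sum, largely through attached replicate 2. There miR-200c-3p held 7.12% of 3p counts, against 38.5% to 56.1% in the other libraries.

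miR-141-3p and miR-200c-3p, the guides of the chromosome 12 locus, supplied nearly all of the family. By mean CPM over the 5 libraries, miR-141-3p ranked 11 and miR-200c-3p 15 among the 697 rows. The guides of chromosome 1 followed, with miR-200a-3p at rank 86, miR-200b-3p at 97 and miR-429 at 178, and then the passengers, with miR-141-5p at 205, miR-200c-5p at 238, miR-200b-5p at 430 and miR-200a-5p at 467. The order was not fixed between neighbours: miR-200c-3p exceeded miR-141-3p in detached replicate 1 alone, and miR-200b-3p exceeded miR-200a-3p in both detached libraries and in attached replicate 1 but not in the other 2 attached ones. miR-141-5p exceeded miR-200c-5p in all 5 libraries. Adapter ligation can favour one small RNA sequence over another, and its part in these orders was not tested.

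**Figure D1:**
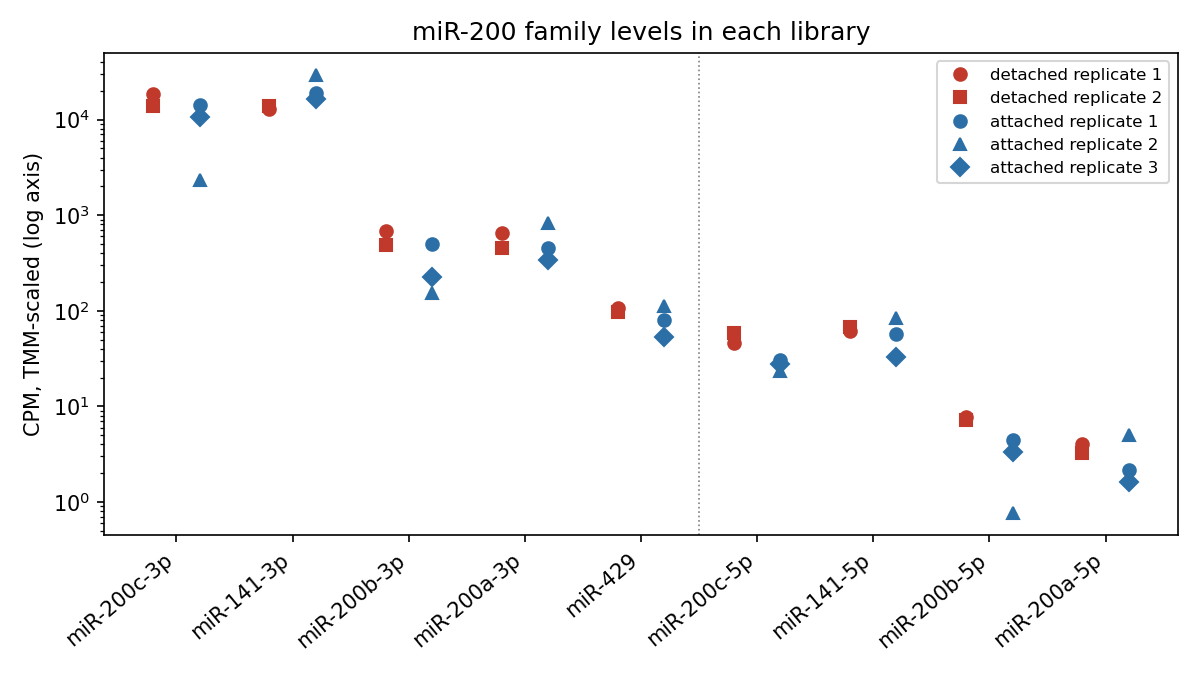
Level of each family member in each library, in TMM-scaled CPM on a log axis, with detached libraries to the left of attached ones and guides to the left of the dotted line. Attached replicate 2 (triangle) lies lowest for all 4 rows of miR-200c and miR-200b and highest for the rows of miR-141, miR-200a and miR-429.

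miR-200c-3p, a repressor of ZEB1, measured 18418 and 13747 CPM in detached replicates 1 and 2. In attached replicates 1, 2 and 3 it measured 14142, 2333 and 10689 CPM. The groups overlapped, through attached replicate 1, and attached replicate 2 was far below every other library. The log2 fold change was 0.83 (SE 0.73, edgeR adjusted p 0.807), and 0.37 (SE 0.46, edgeR adjusted p 0.816) without attached replicate 2.

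miR-141-3p, processed from the same host transcript, measured 12952 and 13874 CPM in the detached libraries and 19103, 29346 and 16477 CPM in the attached ones. Here the groups did not overlap, and it was the lone member lower in detached cells. Among all tested rows, 14.2% were lower in both detached libraries than in every attached one. Its log2 fold change was -0.69 (SE 0.52, edgeR adjusted p 0.773), and -0.41 (SE 0.45, edgeR adjusted p 0.792) without attached replicate 2.

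miR-200b-3p, which shares all but 2 bases with miR-200c-3p, measured 687 and 492 CPM in detached libraries and 502, 153 and 225 CPM in attached ones. Attached replicate 1 lay between the detached libraries and the other 2 attached ones lay below. The fitted log2 difference was 1.01 (SE 0.68, edgeR adjusted p 0.765) and 0.70 (SE 0.52) without attached replicate 2. miR-200a-3p, the chromosome 1 guide with the other seed, measured 653 and 455 CPM in detached and 451, 822 and 342 CPM in attached libraries. Its groups overlapped, and edgeR put the log2 fold change at 0.04 (SE 0.64, adjusted p 0.991), which turned to -0.056 with DESeq2 size factors and 0.48 (SE 0.49) without attached replicate 2. miR-429, the scarcest guide, measured 107 and 98.2 CPM in detached and 80.6, 112 and 53.8 CPM in attached libraries. Its groups overlapped as well, and edgeR put the log2 fold change at 0.33 (SE 0.63, adjusted p 0.906). It was 0.61 (SE 0.50) without attached replicate 2, where the groups no longer overlapped, and without attached replicate 3 it was 0.056 (SE 0.74).

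Among the passengers, miR-200c-5p measured 46.6 and 58.7 CPM in detached and 30.5, 23.4 and 27.5 CPM in attached libraries. miR-200b-5p measured 7.71 and 7.23 CPM in detached and 4.44, 0.759 and 3.31 CPM in attached libraries, from 121 and 95 counts and from 51, 5 and 39 counts. For both of them the groups did not overlap, with log2 fold changes of 0.96 (SE 0.60, edgeR adjusted p 0.758) and 1.37 (SE 0.76, edgeR adjusted p 0.735). miR-141-5p measured 61.9 and 67.2 CPM in detached and 57.2, 83.5 and 32.5 CPM in attached libraries. miR-200a-5p, the scarcest member, measured 4.01 and 3.27 CPM in detached and 2.18, 5.01 and 1.61 CPM in attached libraries. In both, attached replicate 2 was the highest library and the other attached ones lay below the detached ones. Their log2 fold changes were 0.16 (SE 0.66) for miR-141-5p and 0.33 (SE 0.69) for miR-200a-5p. Leaving out attached replicate 2 made these 0.52 (SE 0.51) for miR-141-5p and 0.94 (SE 0.52) for miR-200a-5p, and the same fit gave 0.86 (SE 0.49) for miR-200c-5p and 0.94 (SE 0.51) for miR-200b-5p.

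Over the family, 8 of 9 members were positive in log2 fold change, at a median of 0.33, beside a median of -0.04 and 340 of 697 positive over all tested rows. The family median was 0.61 without attached replicate 2, beside -0.06 over all 679 rows. The count of positive members depended on the fit: it was 5 of 9 without attached replicate 3 and 6 of 9 with replicate number as a block. No member was called at an adjusted p under 0.05 by edgeR's quasi-likelihood test, nor was any at an unadjusted p under 0.05, and the background was equally empty, with 0% of rows called higher and 0% lower (33 higher and 16 lower at an unadjusted p under 0.05). limma-voom also called 0 rows, and DESeq2 called 11 higher and 1 lower, none of them in the family. Of the 9 members, 2 were higher without overlap between groups, against 14.9% of all rows. Without attached replicate 2, 0 of 9 members were called, while edgeR called 3.24% of 679 rows higher and 0.147% lower. Among the remaining libraries 6 of 9 members were higher without overlap, against 21.1% of all rows, and 1 of 9, miR-141-3p, lower, against 21.4%. The members' CPM here keep the TMM factors of all 5 libraries. The 6 were miR-200a-3p, miR-429 and all 4 passengers, and they share hairpins and host transcripts, so they are not separate observations. miR-200a-3p separated narrowly, at 455 CPM in detached replicate 2 against 451 CPM in attached replicate 1. The authors' deposited table, credited to DESeq2 in the submitters' processing notes, gives each of the 9 members an adjusted p of 0.998, with log2 fold changes of -0.63 (SE 0.67) for miR-141-3p, 0.64 (SE 0.81) for miR-200c-3p and 1.09 (SE 0.84) for miR-200b-5p.

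**Figure D2:**
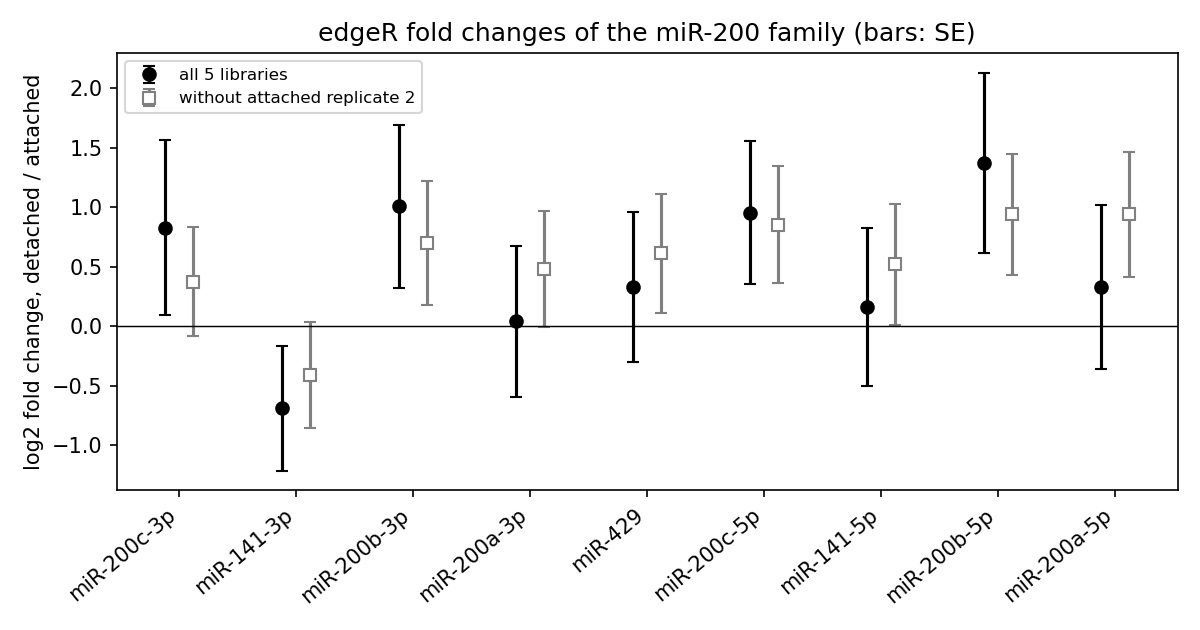
edgeR log2 fold change of each member, detached over attached, with all 5 libraries (filled circles) and without attached replicate 2 (open squares). Bars are standard errors. With all 5 libraries only miR-141-3p is below 0, at -0.69.

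The chromosome 1 locus supplied a small share of the guides, which was higher in both detached libraries than in any attached one. Of the 3p counts of the family, 4.41% and 3.65% came from the chromosome 1 locus in detached replicates 1 and 2, and 3.02%, 3.32% and 2.24% in attached replicates 1, 2 and 3. The groups did not overlap, with a mean of 4.03% ± 0.54 in detached (SD, n = 2) and 2.86% ± 0.56 in attached cells (SD, n = 3). The difference in means was 1.17 percentage points, and 1.40 points without attached replicate 2. An exact two-sided permutation test over libraries gave p = 0.1, the smallest that 2 against 3 libraries allow, and 0.467 after Benjamini-Hochberg adjustment over the 14 shares and ratios computed. This share needs no scaling between libraries. In CPM, the chromosome 1 guides summed to 1247 ± 285 in detached and 914 ± 255 in attached cells, and the chromosome 12 guides to 29496 ± 2651 in detached and 30696 ± 3156 in attached cells (SD, n = 2 and 3). The chromosome 1 sums overlapped through attached replicate 2, at 1086 CPM against 1046 CPM in detached replicate 2, and separated without it.

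Guides with the AAUACUG seed made up 58.5% and 50.0% of 3p counts in detached libraries, and 43.0%, 7.93% and 39.5% in attached ones. Both detached libraries were above every attached one, by a mean difference of 24.2 percentage points (exact permutation p = 0.2, adjusted 0.467), and by 13.1 points without attached replicate 2, where 2 against 2 libraries cannot give an exact p below 0.333. The CPM sum of the AACACUG guides was 13968 ± 512 in detached (SD, n = 2) and 22180 ± 7051 in attached cells (SD, n = 3), and that of the AAUACUG guides 16775 ± 3447 in detached and 9430 ± 6208 in attached cells. Within the chromosome 12 locus the AAUACUG share, that of miR-200c-3p, was 58.7% and 49.8% in detached and 42.5%, 7.36% and 39.3% in attached libraries. This locus supplied nearly all 3p counts, so its share and the family's seed share are nearly the same comparison and not separate results. Within the chromosome 1 locus, miR-200b-3p with miR-429 held 54.9% and 56.5% in detached and 56.3%, 24.3% and 44.9% in attached libraries, where the groups overlapped. The mean difference of that share was 13.8 points, and 5.07 points without attached replicate 2. Exact 95% Clopper-Pearson intervals of these shares reached at most 1.15 percentage points from the value in the chromosome 1 locus and 0.170 points or less elsewhere, and they cover counting error only.

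**Figure D3:**
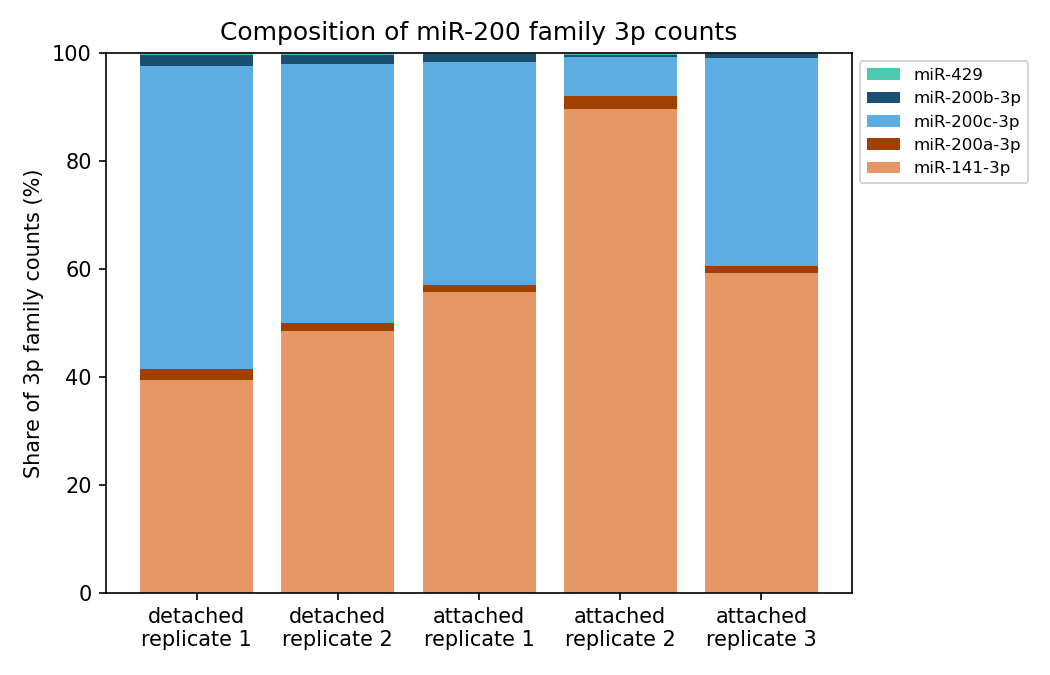
Share of each guide in the summed 3p counts of the family, in percent, with 1 bar per library. The orange parts (AACACUG seed, miR-141-3p and miR-200a-3p) are smallest in the 2 detached libraries and take up nearly the whole bar in attached replicate 2, where miR-141-3p alone holds 89.6%.

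Guides of 1 transcript did not keep a fixed ratio. The log2 ratio of miR-141-3p to miR-200c-3p was -0.51 and 0.01 in detached replicates 1 and 2, and 0.43, 3.65 and 0.62 in attached replicates 1, 2 and 3. The groups did not overlap, which restates the chromosome 12 share given above. The difference in means was -1.82 (exact permutation p = 0.3, adjusted 0.525) and without attached replicate 2 it was -0.78. Among 192 pairs of guides from hairpins within 10000 bp on the same strand, limma gave this pair an SE of 1.17 and an adjusted p of 0.886. Its difference ranked 33 in size, and the median size over all pairs was 0.82. Of all such pairs 0% were called, with 4 at an unadjusted p under 0.05, and in 25.5% the groups did not overlap, so pairs that separate the groups were common. Without attached replicate 2, 1 of the 4 family pairs did so, that of miR-141-3p and miR-200c-3p, against 37.5% of 216 pairs. The 3 pairs of the chromosome 1 locus all overlapped, with differences of -1.05 (SE 0.96) for miR-200a-3p over miR-200b-3p, -0.78 (SE 0.89) for miR-429 over miR-200b-3p and 0.27 (SE 0.67) for miR-429 over miR-200a-3p. With attached replicate 2 left out they were -0.32 (SE 0.49), -0.15 (SE 0.48) and 0.17 (SE 0.45) for these pairs in the same order, and still overlapped. The last of these was 0.074 without detached replicate 2 and 0.47 without detached replicate 1.

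Between the loci, guides of the same seed can be set against each other. The log2 ratio of miR-200a-3p to miR-141-3p was -4.31 and -4.93 in detached libraries and -5.40, -5.16 and -5.59 in attached ones, a difference of 0.76 with no overlap (exact permutation p = 0.1, adjusted 0.467). It was 0.45 without detached replicate 1 and 0.88 without attached replicate 2. For miR-200b-3p to miR-200c-3p the ratio was -4.74 and -4.80 in detached and -4.82, -3.93 and -5.57 in attached libraries. These overlapped, and the means differed by less than 0.01, but this rested on single libraries. The difference was 0.42, with no overlap, without attached replicate 2, and without attached replicate 3 it was -0.40.

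Passenger strands were a small fraction of the family in every library. The 5p rows together made up 0.365% and 0.473% of family counts in detached and 0.274%, 0.342% and 0.233% in attached libraries. The miR-141 hairpin separated the groups: its log2 ratio of 5p to 3p counts was -7.71 and -7.69 in detached libraries, and -8.38, -8.46 and -8.98 in attached ones. The difference was 0.91 (exact permutation p = 0.1, adjusted 0.467) and 0.98 without attached replicate 2. The miR-200a hairpin also did, with -7.34 and -7.10 in detached and -7.67, -7.34 and -7.69 in attached libraries, although detached replicate 1 exceeded attached replicate 2 by a margin smaller than 0.01. Its ratios rest on few 5p counts, 63 and 43 in detached and 25, 33 and 19 in attached libraries. For miR-200b the ratios were -6.47 and -6.08 in detached and -6.81, -7.52 and -6.07 in attached libraries, which overlapped. For miR-200c they were -8.63 and -7.87 in detached and -8.86, -6.64 and -8.60 in attached libraries, which also overlapped, with attached replicate 2 the highest. The difference for miR-200b was 0.52, and 0.16 without attached replicate 2, and that for miR-200c was -0.22, and 0.48 without it. For miR-200a the difference was 0.35, and 0.46 without attached replicate 2. Over 163 human hairpins with both arms at a mean of at least 1 CPM, limma called 0% with all libraries, with 9 at an unadjusted p under 0.05 and a smallest adjusted p of 0.191. The family's limma adjusted p-values were 0.729 for miR-141, 0.817 for miR-200b, 0.877 for miR-200a and 0.921 for miR-200c. In 28.8% of these hairpins the groups did not overlap, beside 2 of the 4 in the family. Without attached replicate 2 these same 2 did not overlap, miR-141 and miR-200a, against 42.2% of 166 hairpins, and limma called 0.602%, none in the family. The size of the miR-141 difference, 0.91, was close to the median size of 0.88 over all hairpins.

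**Figure D4:**
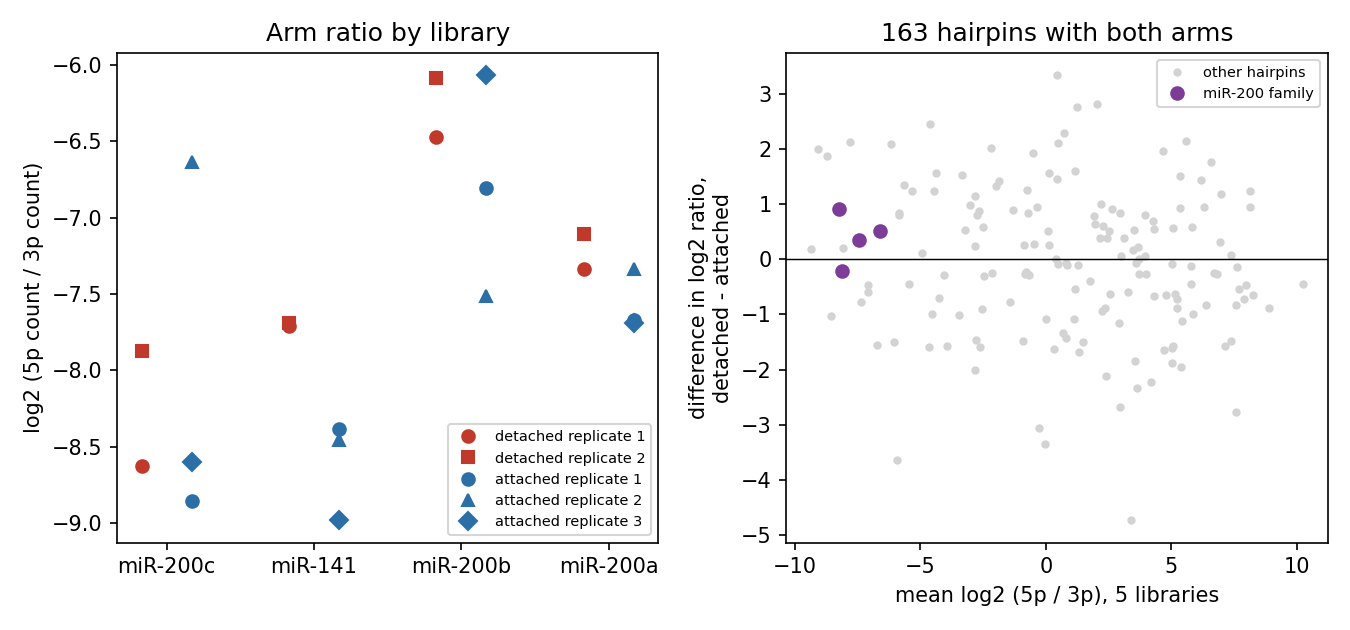
Left, log2 ratio of 5p to 3p counts of each hairpin in each library, detached to the left of attached. Right, difference in that ratio (detached minus attached) against its mean over the 5 libraries for 163 hairpins, where the 4 family hairpins lie toward the left, 3p-biased edge and differ by -0.22 to 0.91.

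Attached replicate 2 differed in sign between hairpins of the family. Set against the mean log2 level of attached replicates 1 and 3, it was lower for both arms of miR-200c (-2.40 for 3p and -0.30 for 5p) and of miR-200b (-1.14 for 3p and -1.79 for 5p). It was higher for both arms of miR-141 (0.73 for 3p and 0.94 for 5p), both arms of miR-200a (1.06 for 3p and 1.21 for 5p) and miR-429 (0.76). The division follows neither locus nor seed alone, since miR-429 has the seed of miR-200c and the locus of miR-200b. Such deviations were common in that library. Of the 697 rows, 8.61% deviated as far down as miR-200c-3p or further, 16.6% as far as miR-200b-5p, 26.8% as far as miR-200b-3p and 46.9% as far as miR-200c-5p. The 5 higher members lay at or above 72.5% to 82.2% of the rows. No label gives a date or batch for this library.

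Likeness of profile was the root mean square difference of centred log2(CPM + 0.5) over the 5 libraries, among 167 miRNAs outside the family with a mean of at least 100 CPM. Nearest to miR-200c-3p were miR-22-5p (0.254), miR-96-5p (0.270) and miR-148b-3p (0.313), with a median of 1.16 over the 167. Nearest to miR-200b-3p were miR-224-5p (0.211), miR-193a-3p (0.352) and miR-32-5p (0.375), and nearest to miR-141-3p were let-7d-3p (0.0951), miR-181a-5p (0.151) and miR-92a-3p (0.186). Guides sharing a seed varied in distance. miR-200b-3p was at 0.519 from miR-200c-3p (14 of the 167 nearer), and miR-200a-3p at 0.444 from miR-141-3p (46 nearer). Leaving out attached replicate 2 made these 0.339 (51 nearer) and 0.494 (117 nearer). miR-429 was at 1.22 from miR-200c-3p (91 nearer) and 0.819 from miR-200b-3p (53 nearer), and at 0.180 and 0.251 without that library. The neighbour of miR-200c-3p in its own transcript, miR-141-3p, was at 1.46, farther than 113 of the 167. Without attached replicate 2 that distance was 0.435, with 81 of the 167 nearer, and the nearest of all to miR-200c-3p was then miR-200a-3p, at 0.0610, which has another seed and another locus. In those 4 libraries miR-148b-3p was at 0.211 from miR-200c-3p, with 8 of the 167 nearer, miR-22-5p at 0.230, with 14 nearer, and miR-96-5p at 0.284, with 28 nearer. From miR-200b-3p, miR-224-5p was at 0.236 (1 nearer), miR-193a-3p at 0.380 (10 nearer) and miR-32-5p at 0.416 (13 nearer). From miR-141-3p, let-7d-3p was at 0.103 (1 nearer), miR-92a-3p at 0.115 (2 nearer) and miR-181a-5p at 0.167 (7 nearer).

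**Figure D5:**
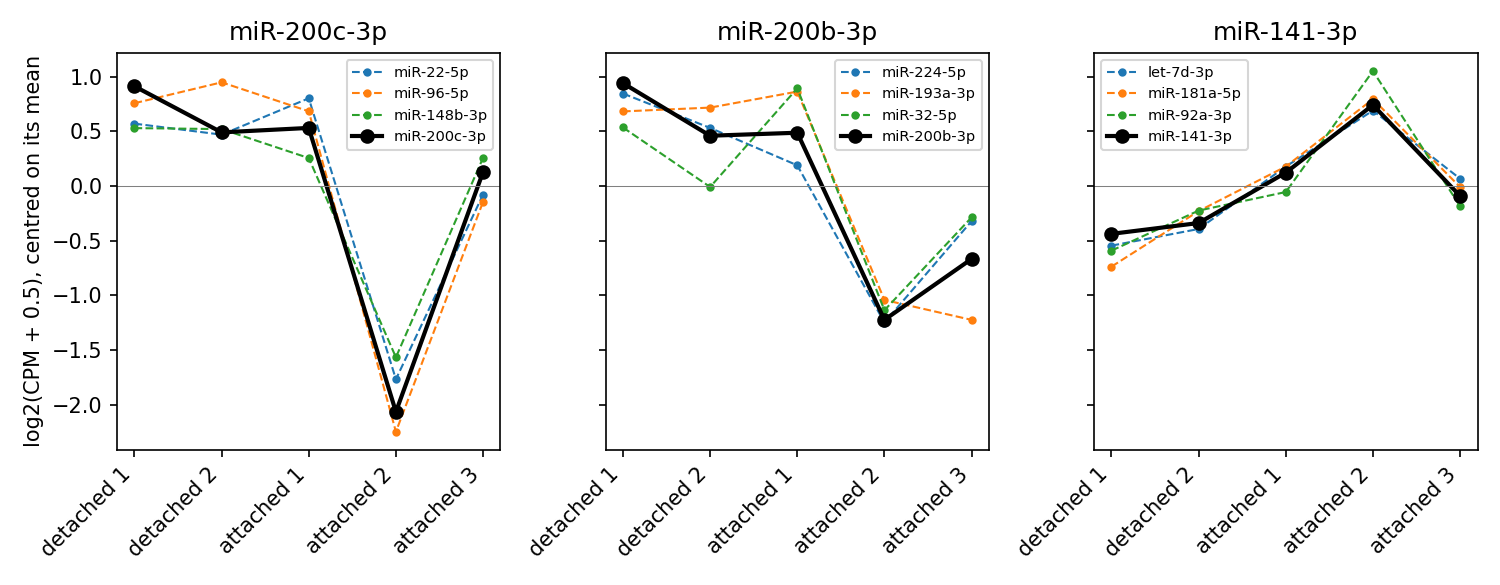
Centred log2(CPM + 0.5) of miR-200c-3p, miR-200b-3p and miR-141-3p (black) with the 3 miRNAs outside the family nearest to each (dashed), by library. Attached replicate 2 is the low point of the first panel and the high point of the third.

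Other miRNAs of the ZEB and SNAI network showed no common direction. Of 9 epithelial miRNAs in that list, all 9 were tested, 6 were positive, with a median log2 fold change of 0.14, and 0 were called by edgeR. The 3 with the smallest p were miR-203a-3p, which promotes differentiation of stratified epithelium, at 3.42 (SE 0.73, edgeR adjusted p 0.170), miR-34b-5p, of the p53-induced miR-34 family, at 1.06 (SE 0.78), and miR-96-5p at 1.00 (SE 0.81). Without attached replicate 2 edgeR called 1 of the 9, miR-203a-3p (3.61, SE 0.64, edgeR adjusted p 0.00329). Of 11 miRNAs of EMT and mesenchymal cells, 6 passed the filter and 2 of these were positive, with a median of -0.26 and 0 called. Those with the smallest p were miR-145-5p, abundant in smooth muscle, at 3.98 (SE 0.78, edgeR adjusted p 0.146), and the clustered pair miR-222-3p (-2.87, SE 1.23) and miR-221-3p (-2.90, SE 1.24), both of which were high in attached replicate 2. Without that library edgeR called 2 of the 6, miR-145-5p and miR-143-3p, both higher. Both of these also stand among the fibroblast and mesenchymal markers, and the remaining 3 of those markers did not pass the filter.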

How the data were processed

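Small RNAs of 18 to 24 nt from 50 µg of total RNA were sequenced in 5 libraries, per the labels. The deposited tables hold raw read counts per named small RNA, not normalized; their 5 summary rows total 0 counts. Per the submitters' processing notes, hg38 and DESeq2 were used, without role or version; no source used here names the aligner or counter. From the authors' deposited comparison table, log2 fold changes, their standard errors (listed as a score) and adjusted p-values were used; 5 per-library columns of scaled values were not used.

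The test across 2565 human miRNA rows was edgeR's two-sided quasi-likelihood F test (version 4.0.16, R 4.3.3) with TMM factors, on rows kept by filterByExpr (minimum count 10, minimum total 15), with Benjamini-Hochberg adjustment over 697 rows and calls at adjusted p under 0.05. SE is the absolute log2 fold change over the square root of F. Arm and cluster ratios (0.5 added to each count, scarcer row at a mean of at least 1 CPM) were fitted with limma 3.58.1. Shares and ratios were also compared by exact permutation of libraries. Both fits were tested on simulated data that had larger changes than any in the family and no outlying library. Power for changes of the family's size was not tested. Alternatives were other scalings, DESeq2 1.42.0, limma-voom, other filters, all named rows, a replicate block and leaving out each library. The family was named in advance; miRNAs named beside it were the 3 nearest in profile to each of 3 guides, and the 3 smallest p in each list. Members and lists were chosen with earlier results of these data known. Positions come from GENCODE 29, and host genes and sequences from RefSeq.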

Additional observations from a re-analysis of the deposited data

How the results depend on the processing

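Settings changed the calls over all miRNAs, not over the family, of which 0 members were called in any alternative run. The 0 higher and 0 lower rows of edgeR became 11 and 1 with DESeq2, 14 and 5 with no low-count filter, and 0 to 22 and 0 to 1 across fits leaving out 1 library, the highest without attached replicate 2; the cause was not tested. miR-200a-3p turned negative with DESeq2 size factors in edgeR (-0.056), with DESeq2 (-0.056), under the stricter filter of 100 CPM in 2 libraries (-0.059), which tests fewer rows, with the replicate block (-0.16) and in 3 leave-one-out fits (-0.25 to 0.48 over the 5). miR-141-5p reversed with the replicate block (-0.10), and leaving out 1 library gave -0.17 to 0.52 for it and -0.015 to 0.94 for miR-200a-5p. The other 6 members kept their direction in every alternative run, miR-141-3p between -0.90 and -0.38. Passengers were not tested under the stricter filter.

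Leaving out 1 library, the arm ratio difference of miR-200c ran from -0.63 to 0.48, that of miR-200b-3p to miR-200c-3p from -0.40 to 0.42; hairpins called by arm ratio numbered 0 to 1, and 1 with the replicate block. The family total differed by -829 CPM (detached minus attached) with TMM, 4734 with the unscaled total and 4458 per 1000000 named counts; with TMM, leaving out 1 library gave -2897 to 1238, so its direction depends on scaling and on single libraries. Titles share replicate numbers 1 and 2, but no label pairs the libraries, so the block was kept as an alternative. Deviations of same-numbered libraries correlated at -0.23 and -0.21 over 697 rows. With so few libraries these correlations are not separate checks and cannot decide whether replicates were paired. Attached replicate 2, with 8805009 human miRNA counts, limits precision: without it edgeR's biological coefficient of variation was 0.395 instead of 0.620. It was singled out on these same data, so fits without it may give p-values that are too small.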
